A study of Homo sapiens with 8 samples.

Results

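Transcripts of 48 genes for lysosomal enzymes, lysosomal membrane proteins, the vacuolar proton pump (V-ATPase) and 2 of their transcription factors were followed in TMD8, a human B cell lymphoma line of the activated B cell-like subtype. The genes were chosen by name from the 25066 genes of the deposited expression table, and all 48 were found there. They comprise 22 soluble hydrolases and their activators, 8 membrane and sterol transport proteins, the transcription factors TFEB and TFE3, and 16 V-ATPase subunits. Of these, 47 were expressed above the filter of 4.03 on the log2 scale, which is the value of 10 reads at the median library depth. LGMN, which encodes legumain, an asparaginyl endopeptidase, was not: it had a single read in 1 sgKLHL14 ibrutinib library, and the other 7 libraries listed it at 0.

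The cells were TMD8 lentivirally transduced with Cas9 and carried either a guide RNA against KLHL14 (sgKLHL14, genotype given as KLHL14(-/-)) or a control guide RNA (sgCTRL, genotype given as KLHL14(+/+)). KLHL14 encodes a substrate adaptor of a cullin ubiquitin ligase. Each was given 2 nM ibrutinib, which blocks the B cell receptor kinase BTK, or DMSO, the solvent, for 24 h. The 4 groups were thus sgKLHL14 with ibrutinib, sgKLHL14 with DMSO, sgCTRL with ibrutinib and sgCTRL with DMSO, with 2 libraries of bulk RNA-seq each, and all carry Cas9 and a guide.

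Depth was 12333876 to 23467110 reads a library, and the 47 tested genes had 72 to 14738 reads in each. The labels do not tell whether both libraries of a group were grown separately, and p-values therefore rest on a spread between libraries that may be technical. KLHL14 itself was at 13.16 and 13.16 in ibrutinib against 12.19 and 12.33 in DMSO with sgKLHL14, and 12.30 and 12.30 in ibrutinib against 12.07 and 12.05 in DMSO with sgCTRL. Its transcript was therefore not lower in the libraries labelled sgKLHL14 than in those labelled sgCTRL, and the transcript does not check the genotype. In ibrutinib it was higher with sgKLHL14, by 0.86 (limma adjusted p = 2.46e-08). The ibrutinib response of KLHL14 differed between the guides by 0.66 (limma adjusted p = 0.00162). That last call was lost without the filter on low values and without the mean-variance trend. All 7 B cell markers listed for a check of the cell type were expressed, summing to 4233 to 4413 RPM (reads scaled to the library total) in ibrutinib against 2944 to 3024 in DMSO with sgKLHL14, and to 4388 to 4416 against 3088 to 3169 with sgCTRL. Of 10 macrophage markers, a cell type rich in lysosomes, only TYROBP passed the filter, and MARCO and FCGR3A had 0 reads in every library. Summed macrophage markers were nevertheless at 14.6 to 14.96 RPM in ibrutinib against 10.6 to 12.8 in DMSO with sgKLHL14, and at 15.3 to 17.1 against 11.7 to 11.9 with sgCTRL. That sum is mostly TYROBP, with 146 to 278 reads a library, as no other macrophage marker had more than 13. The part of the B cell and macrophage marker shifts in the results was not tested. Of 6 T cell markers 1 passed the filter, with CD3D, CD3E and TRAT1 at 0. Of 6 fibroblast markers 4 passed, with LUM at 0. The fibroblast markers summed to 10.9 to 13.2 RPM in ibrutinib against 6.8 to 8.2 in DMSO with sgKLHL14, and to 13.6 to 14.4 against 6.6 to 8.4 with sgCTRL, and their part in the results was not tested. BTK, the target of the drug, rose by 0.28 with sgKLHL14 and 0.17 with sgCTRL (limma adjusted p = 0.000584 and 0.0284). The sgCTRL call of BTK was lost without the filter on low values, without the mean-variance trend and without sgCTRL DMSO 2, sgCTRL ibrutinib 1 or sgCTRL ibrutinib 2 (adjusted p = 0.0633 to 0.227, within 0.00877 to 0.227 over its 18 alternatives). In bulk RNA, fewer cells of a type and less RNA per cell cannot be told apart.

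Lysosomes are the acidic organelles in which proteins, lipids, glycans and nucleic acids delivered by endocytosis and autophagy are broken down. The V-ATPase acidifies them: its V1 sector, in the cytosol, splits ATP, and its V0 sector, in the membrane, carries protons. Cathepsins and other hydrolases act in the lumen, where some need small activator proteins, and heavily glycosylated membrane proteins line the limiting membrane. In B cells the same compartments take up antigen bound by the B cell receptor and cut it for presentation on MHC class II. TFEB and TFE3 are basic helix-loop-helix transcription factors that bind a sequence known as the CLEAR element, built around the E-box CACGTG, in promoters of many lysosomal genes. The mTORC1 kinase at the lysosome surface holds them in the cytosol when nutrients are plentiful.

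Promoter windows of 300 bases, most of them before the annotated start, were taken from RefSeq on GRCh38.p14 and were found for 35 of the 48 genes. The E-box CACGTG was present in 10 of 35 (28.6%), against 2030 of 27305 promoters of all genes (7.43%). The longer TCACGTGA, which contains CACGTG, was present in 6 (17.1%, against 1.04% of all), and the CLEAR element in its full palindromic form, TCACGTGA with a G before and a C after it, in 3 (8.57%, against 0.381% of all). All are palindromes and so read the same on both strands. The genes were chosen as lysosomal, and the CLEAR element is known from promoters of such genes. The higher shares therefore describe that choice and are not a test. Among genes of the set with a window, CACGTG was present in 3 of the 8 that rose in ibrutinib with both guides, in 1 of the 3 that fell with both and in 4 of the 16 that passed the test with neither. The 6 windows below are printed because they hold the E-box and yet belong to genes with different outcomes: GAA, ATP6V1G1 and CTSD rose with both guides, CD63 fell with both, and LAMP1 and MCOLN1 passed with neither. Capitals mark CACGTG, and each sequence runs 5′ to 3′ on the strand of its gene.
GAA promoter, chr17:80101331-80101630, plus strand: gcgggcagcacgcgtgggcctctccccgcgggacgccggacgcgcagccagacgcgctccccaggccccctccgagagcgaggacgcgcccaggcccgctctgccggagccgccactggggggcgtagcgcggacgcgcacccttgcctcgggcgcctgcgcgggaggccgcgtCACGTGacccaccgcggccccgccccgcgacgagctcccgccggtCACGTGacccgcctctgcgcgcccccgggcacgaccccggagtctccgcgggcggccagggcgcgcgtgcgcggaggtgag
ATP6V1G1 promoter, chr9:114587519-114587818, plus strand: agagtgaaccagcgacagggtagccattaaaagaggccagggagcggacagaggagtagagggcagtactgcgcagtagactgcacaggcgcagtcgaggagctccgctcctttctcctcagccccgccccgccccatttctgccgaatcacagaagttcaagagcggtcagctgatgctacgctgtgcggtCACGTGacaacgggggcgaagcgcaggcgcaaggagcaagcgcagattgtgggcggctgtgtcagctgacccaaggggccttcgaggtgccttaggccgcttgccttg
CTSD promoter, chr11:1763878-1764177, minus strand: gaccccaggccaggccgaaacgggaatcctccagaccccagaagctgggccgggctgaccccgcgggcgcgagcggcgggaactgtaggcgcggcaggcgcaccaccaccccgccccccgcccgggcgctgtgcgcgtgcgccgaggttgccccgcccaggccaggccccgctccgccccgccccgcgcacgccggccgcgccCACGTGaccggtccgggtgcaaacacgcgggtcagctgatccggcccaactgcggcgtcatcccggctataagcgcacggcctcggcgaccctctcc
CD63 promoter, chr12:55728960-55729259, minus strand: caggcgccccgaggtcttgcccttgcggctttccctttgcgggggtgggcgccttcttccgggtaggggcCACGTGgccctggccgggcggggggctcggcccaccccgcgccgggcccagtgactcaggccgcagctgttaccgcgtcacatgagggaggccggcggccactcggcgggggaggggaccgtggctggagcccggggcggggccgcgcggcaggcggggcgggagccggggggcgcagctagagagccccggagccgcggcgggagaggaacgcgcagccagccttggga
LAMP1 promoter, chr13:113296989-113297288, plus strand: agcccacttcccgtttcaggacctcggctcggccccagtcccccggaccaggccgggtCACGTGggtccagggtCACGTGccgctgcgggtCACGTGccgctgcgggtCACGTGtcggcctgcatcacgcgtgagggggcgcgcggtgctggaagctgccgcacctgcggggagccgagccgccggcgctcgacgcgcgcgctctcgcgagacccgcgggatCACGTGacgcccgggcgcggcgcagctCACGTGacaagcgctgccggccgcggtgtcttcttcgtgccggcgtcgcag
MCOLN1 promoter, chr19:7522374-7522673, plus strand: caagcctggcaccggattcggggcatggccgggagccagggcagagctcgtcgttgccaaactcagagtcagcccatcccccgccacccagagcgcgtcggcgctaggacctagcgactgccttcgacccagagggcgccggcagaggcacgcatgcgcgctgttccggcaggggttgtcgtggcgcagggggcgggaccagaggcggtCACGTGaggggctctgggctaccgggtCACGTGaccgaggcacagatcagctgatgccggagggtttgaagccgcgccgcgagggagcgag

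GAA carries the full CLEAR element at both of its matches, whose first CACGTG bases lie 76 and 31 bases before the start, and ATP6V1G1 carries it once, 58 bases before. CTSD holds only the core CACGTG, 47 bases before its start, and CD63 holds it 180 bases before. LAMP1 has the most matches, 6, of which 2 extend to TCACGTGA, and MCOLN1 has 2, of which 1 is the full CLEAR element. A match describes the letters of the window and not binding, and no binding was measured.

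Ibrutinib shifted the lysosomal genes in both directions, and more rose than fell. PSAP, CTSB, CTSS, CTSD, GAA and NPC2, which encode an activator precursor, 3 cathepsins, a glucosidase and a cholesterol carrier, were each 1.37 to 1.57 times as high in ibrutinib as in DMSO with either guide. CD63 and CTSH fell with both guides, as did ATP6V0A1. In limma's moderated test with Benjamini-Hochberg adjustment over all 12682 genes kept, 18 of 47 passed with sgKLHL14 (38.3%) when 38.9% of all genes did, and 22 of 47 with sgCTRL (46.8%) when 34.8% of all genes did. With sgKLHL14, 14 were higher (29.8%; 19.7% of all genes) and 4 lower (8.51%; 19.3% of all genes). With sgCTRL, 17 were higher (36.2%; 17.9% of all genes) and 5 lower (10.6%; 16.9% of all genes). The share with sgCTRL depended on single libraries, and fell in every fit that left out 1 sgCTRL library. Such fits leave 1 library in that group. The share of all genes fell there as well, and both shares lay closer together than in the fit as reported. Without the mean-variance trend 13 passed with sgCTRL (27.7%; 26.2% of all genes), so in that fit too the share was nearer that of all genes. With sgKLHL14 the same fit also passed 13 of 47 (27.7%; 30.4% of all genes). The comparison with all genes also depended on the filter on low values. With a filter 10 times higher, 19 of 47 passed with sgKLHL14 (40.4%; 44.0% of all genes) and 22 with sgCTRL (46.8%; 38.8% of all genes). With no filter, 15 of 48 passed with sgKLHL14 (31.2%; 21.5% of all genes) and 16 with sgCTRL (33.3%; 18.6% of all genes). The median log2 change was 0.10 with sgKLHL14, where that of all genes was 0.01, and 0.10 with sgCTRL, where that of all genes was 0.02. These are descriptions of a set chosen with earlier results of the same libraries known, and the set itself was given no test.

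**Figure D1:**
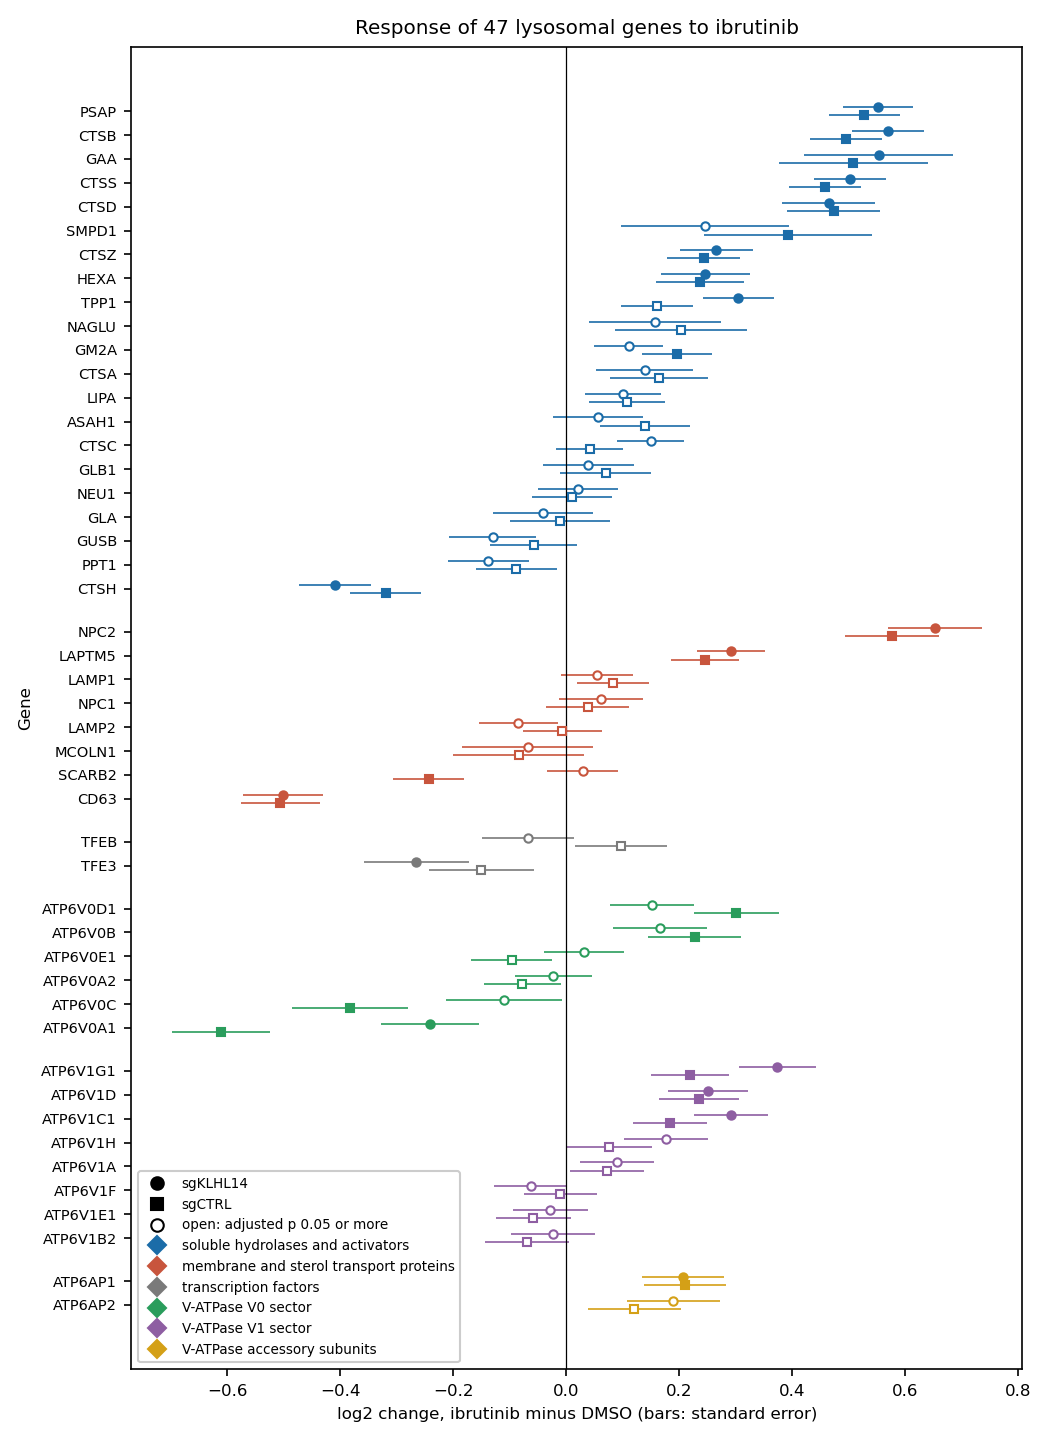
Log2 change in ibrutinib minus DMSO on the x axis for the 47 genes tested, grouped by class on the y axis, with sgKLHL14 as circles and sgCTRL as squares; bars are standard errors from limma and filled symbols have an adjusted p under 0.05. NPC2 and 5 hydrolases or activators lie furthest right, CTSH is the only hydrolase called on the left, and V0 subunits lie on both sides of 0, with ATP6V0A1 at -0.24 and -0.61.

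The cathepsins did not move as a block. CTSB, a lysosomal cysteine protease, had log2 levels of 11.29 and 11.25 in ibrutinib against 10.69 and 10.72 in DMSO with sgKLHL14, and 11.33 and 11.38 in ibrutinib against 10.88 and 10.84 in DMSO with sgCTRL. CTSS, the cysteine protease known for cutting the invariant chain of MHC class II, had 12.10 and 11.997 in ibrutinib against 11.55 and 11.55 in DMSO with sgKLHL14, and 12.10 and 12.09 in ibrutinib against 11.57 and 11.71 in DMSO with sgCTRL. CTSD, the aspartic protease, had 10.77 and 10.73 in ibrutinib against 10.41 and 10.16 in DMSO with sgKLHL14, and 10.89 and 10.81 in ibrutinib against 10.44 and 10.31 in DMSO with sgCTRL. In all 3 genes every ibrutinib library lay above every DMSO library of its guide. The changes were 0.57 with sgKLHL14 and 0.49 with sgCTRL (SE 0.064, adjusted p = 8.66e-07 and 5.61e-06) for CTSB, 0.50 with sgKLHL14 and 0.46 with sgCTRL (SE 0.064, adjusted p = 4.44e-06 and 1.52e-05) for CTSS and 0.46 with sgKLHL14 and 0.47 with sgCTRL (SE 0.082, adjusted p = 0.000164 and 0.000163) for CTSD in limma. CTSH, an aminopeptidase of the same cysteine protease family as CTSB, went the other way, at 10.84 and 10.80 in ibrutinib against 11.27 and 11.19 in DMSO with sgKLHL14, and 11.05 and 11.05 in ibrutinib against 11.36 and 11.38 in DMSO with sgCTRL. Both of its ibrutinib libraries lay below both DMSO libraries with either guide, and CTSH fell by 0.41 with sgKLHL14 and by 0.32 with sgCTRL (SE 0.064, adjusted p = 4.2e-05 and 0.000599). These 4 calls held in all 18 alternative settings with both guides.

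CTSZ, a carboxypeptidase and the second most abundant transcript of the set per length, rose less, by 0.27 with sgKLHL14 and 0.24 with sgCTRL on the log2 scale (limma adjusted p = 0.0029 and 0.00623). Its levels were with sgKLHL14 12.79 and 12.72 in ibrutinib and 12.54 and 12.45 in DMSO, and with sgCTRL 12.86 and 12.86 in ibrutinib and 12.70 and 12.53 in DMSO, so the groups did not overlap, though 1 sgCTRL DMSO library lay closer to the ibrutinib libraries. With sgKLHL14 the call was lost without the mean-variance trend (adjusted p = 0.0503, within 0.000565 to 0.0503 over its 18 alternatives). With sgCTRL it was lost without the mean-variance trend and without sgCTRL DMSO 2, sgCTRL ibrutinib 1 or sgCTRL ibrutinib 2 (adjusted p = 0.0502 to 0.111, within 0.00152 to 0.111 over its 18 alternatives), and without sgCTRL DMSO 2 the change was 0.15. TPP1, a tripeptidyl peptidase, was at 11.58 and 11.66 in ibrutinib against 11.29 and 11.34 in DMSO with sgKLHL14, and 11.70 and 11.59 in ibrutinib against 11.50 and 11.47 in DMSO with sgCTRL. It rose with sgKLHL14 (log2 change 0.30, adjusted p = 0.000797) and had 0.16 with sgCTRL (adjusted p = 0.0572), without overlap of the groups in either. The sgCTRL change of TPP1 passed with a replicate block, with only the 4 libraries compared in the fit and without sgKLHL14 DMSO 1 or sgKLHL14 DMSO 2 (adjusted p = 0.0315 to 0.0454, within 0.0315 to 0.403 over its 18 alternatives). CTSC and CTSA, a dipeptidyl peptidase and a carboxypeptidase that protects other lysosomal enzymes, passed with neither guide, with log2 changes of 0.15 and 0.14 with sgKLHL14 and 0.04 and 0.16 with sgCTRL. With sgKLHL14 CTSC (adjusted p = 0.0534) passed in 7 settings, with a filter 10 times higher, with quantile scaling, with median centring, with voom, with a replicate block and without sgCTRL DMSO 1 or sgCTRL DMSO 2 (adjusted p = 0.0356 to 0.0485, within 0.0356 to 0.219 over its 18 alternatives). CTSA (adjusted p = 0.217) passed there without sgKLHL14 DMSO 1 (adjusted p = 0.0378, within 0.0378 to 0.92 over its 18 alternatives), where its change was 0.26.

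PSAP encodes prosaposin, the precursor of the saposins that present sphingolipids to their hydrolases, and rose with both guides. It was at 13.31 and 13.36 in ibrutinib against 12.86 and 12.70 in DMSO with sgKLHL14, and 13.31 and 13.30 in ibrutinib against 12.74 and 12.82 in DMSO with sgCTRL. All 4 ibrutinib libraries were above all 4 DMSO libraries. The change was 0.55 with sgKLHL14 and 0.53 with sgCTRL (SE 0.062, adjusted p = 9.31e-07 and 1.87e-06) in limma, or 1.47-fold and 1.44-fold, and passed in all 18 alternatives with both guides. GAA, the acid glucosidase that degrades glycogen, had the lowest mean level per length among the genes tested in sgCTRL DMSO libraries and a change of like size, at 8.27 and 8.30 in ibrutinib against 7.77 and 7.70 in DMSO with sgKLHL14, and 7.93 and 8.10 in ibrutinib against 7.60 and 7.41 in DMSO with sgCTRL. GAA rose by 0.55 with sgKLHL14 and 0.51 with sgCTRL (SE 0.132, adjusted p = 0.00242 and 0.00536), and with sgCTRL lost the call without sgCTRL DMSO 2 or sgCTRL ibrutinib 2 (adjusted p = 0.0592 to 0.0753, within 0.00434 to 0.0753 over its 18 alternatives). HEXA, the alpha subunit of the hexosaminidase that degrades GM2 ganglioside, was at 10.29 and 10.45 in ibrutinib against 10.12 and 10.12 in DMSO with sgKLHL14, and 10.41 and 10.26 in ibrutinib against 10.11 and 10.09 in DMSO with sgCTRL. It too was higher in every ibrutinib library than in the DMSO libraries of its guide, by 0.25 with sgKLHL14 and 0.24 with sgCTRL (SE 0.079, adjusted p = 0.0184 and 0.0251). That call was lost with sgKLHL14 without the mean-variance trend and without sgKLHL14 DMSO 1, sgKLHL14 DMSO 2 or sgKLHL14 ibrutinib 2 (adjusted p = 0.0541 to 0.197, within 0.0126 to 0.197 over its 18 alternatives), and its change was 0.17 without sgKLHL14 ibrutinib 2. With sgCTRL HEXA lost it without the filter on low values, without the mean-variance trend and without sgCTRL DMSO 1, sgCTRL DMSO 2 or sgCTRL ibrutinib 1 (adjusted p = 0.0532 to 0.274, within 0.014 to 0.274 over its 18 alternatives).

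GM2A, the activator protein that lifts GM2 ganglioside out of the membrane for hexosaminidase, was at 11.88 and 11.81 in ibrutinib against 11.74 and 11.73 in DMSO with sgKLHL14, and 11.88 and 11.88 in ibrutinib against 11.63 and 11.74 in DMSO with sgCTRL. It passed with sgCTRL (log2 change 0.20, adjusted p = 0.0184) and not with sgKLHL14 (0.11, adjusted p = 0.168), although the groups did not overlap in either. SMPD1, the acid sphingomyelinase, was among the lowest of the set at 7.71 and 7.49 in ibrutinib against 7.41 and 7.30 in DMSO with sgKLHL14, and 7.56 and 7.66 in ibrutinib against 7.17 and 7.26 in DMSO with sgCTRL. It passed narrowly with sgCTRL (0.39, SE 0.149, adjusted p = 0.0474) and had 0.25 with sgKLHL14 (adjusted p = 0.203). In limma the difference between the guides in these responses did not pass for either gene (adjusted p = 0.96 for GM2A and 0.973 for SMPD1). The GM2A call with sgCTRL was lost without the mean-variance trend and without sgCTRL DMSO 1, sgCTRL ibrutinib 1 or sgCTRL ibrutinib 2 (adjusted p = 0.0722 to 0.16, within 0.00837 to 0.16 over its 18 alternatives). The SMPD1 call was lost without the filter on low values, with quantile scaling, with median centring, with voom and without sgCTRL DMSO 1, sgCTRL DMSO 2, sgKLHL14 DMSO 1, sgKLHL14 DMSO 2, sgCTRL ibrutinib 1 or sgCTRL ibrutinib 2 (adjusted p = 0.0509 to 0.222, within 0.0316 to 0.222 over its 18 alternatives). The remaining hydrolases passed with neither guide: NAGLU, LIPA, ASAH1, GLB1, NEU1, GLA, GUSB and PPT1, which degrade glycans, lipids and fatty-acylated proteins, had log2 changes between -0.14 for PPT1 and 0.16 for NAGLU with sgKLHL14, and between -0.09 and 0.20 for the same genes with sgCTRL. GUSB has pseudogenes, and how reads shared with them were counted is not given in the sources used here. Over the 21 hydrolases and activators tested, 8 rose and 1 fell with sgKLHL14 (42.9%, against 38.9% of all genes; median log2 change 0.15). With sgCTRL 9 rose and 1 fell (47.6%, against 34.8% of all genes; median 0.16).

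**Figure D2:**
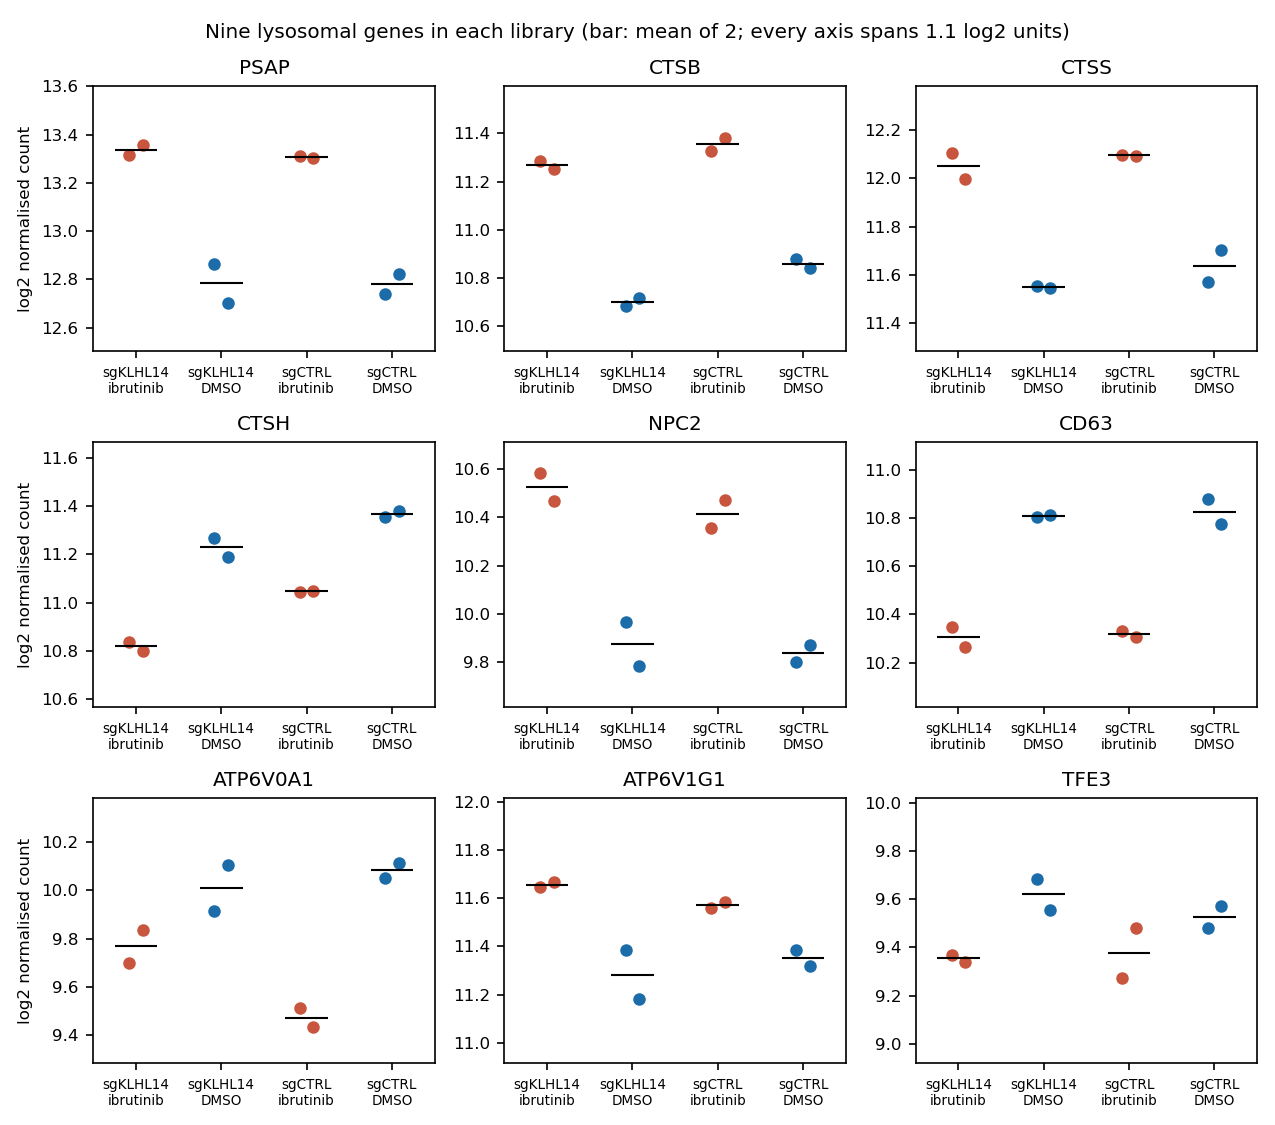
Log2 level on the y axis in each of the 8 libraries for 9 genes, 1 panel a gene, with ibrutinib (red) and DMSO (blue) libraries of each guide side by side and the group mean as a bar. CTSB, PSAP and NPC2 were higher in every ibrutinib library than in every DMSO library, CTSH and CD63 were lower, and ATP6V0A1 was lower in the ibrutinib libraries of each guide.

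Among membrane and sterol transport proteins the genes split. NPC2, a soluble carrier that hands cholesterol to the membrane protein NPC1, had the largest rise of the 47 with either guide, at 10.59 and 10.47 in ibrutinib against 9.97 and 9.78 in DMSO with sgKLHL14, and 10.35 and 10.47 in ibrutinib against 9.80 and 9.87 in DMSO with sgCTRL. NPC2 rose by 0.65 with sgKLHL14 and 0.58 with sgCTRL (SE 0.083, adjusted p = 4.29e-06 and 2.17e-05) in limma, or 1.57-fold and 1.49-fold, with every ibrutinib library above every DMSO library, and passed in all 18 alternatives with both. NPC1, its partner, had changes of 0.06 and 0.04 and did not pass (adjusted p = 0.549 and 0.728). LAPTM5, a lysosomal membrane protein of blood cells and the most abundant transcript of the set per length, had levels of 14.30 and 14.28 in ibrutinib against 14.07 and 13.93 in DMSO with sgKLHL14, and 14.13 and 14.16 in ibrutinib against 13.89 and 13.91 in DMSO with sgCTRL. It rose by 0.29 with sgKLHL14 and 0.25 with sgCTRL (SE 0.060, adjusted p = 0.000745 and 0.00347), and the groups of each guide did not overlap. Its call with sgCTRL was lost without sgCTRL ibrutinib 2 (adjusted p = 0.0551, within 0.000282 to 0.0551 over its 18 alternatives).

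CD63, a tetraspanin of late endosomes, lysosomes and exosomes, fell by like amounts with both guides. Its levels were 10.35 and 10.26 in ibrutinib against 10.80 and 10.81 in DMSO with sgKLHL14, and 10.33 and 10.31 in ibrutinib against 10.88 and 10.77 in DMSO with sgCTRL. Every ibrutinib library lay below every DMSO library, and the log2 change was -0.50 with sgKLHL14 and -0.51 with sgCTRL (SE 0.070, adjusted p = 1.32e-05 and 1.4e-05) in limma, which held in all 18 alternatives. SCARB2, the receptor that carries glucocerebrosidase to lysosomes, was at 12.37 and 12.31 in ibrutinib against 12.25 and 12.37 in DMSO with sgKLHL14, and 12.22 and 12.12 in ibrutinib against 12.38 and 12.45 in DMSO with sgCTRL. With sgCTRL both ibrutinib libraries lay below both DMSO libraries (log2 change -0.24, adjusted p = 0.00504), while with sgKLHL14 the groups overlapped (0.03, adjusted p = 0.747). The difference in response, sgKLHL14 minus sgCTRL, was 0.27 for SCARB2 (95% interval 0.09 to 0.46, adjusted p = 0.704). The sgCTRL call was lost without the mean-variance trend and without sgCTRL DMSO 2 or sgCTRL ibrutinib 2 (adjusted p = 0.051 to 0.101, within 0.00119 to 0.101 over its 18 alternatives). LAMP1 and LAMP2, the abundant glycoproteins of the lysosomal membrane, and MCOLN1, its calcium channel, passed with neither guide, with log2 changes of 0.05, -0.09 and -0.07 with sgKLHL14 and 0.08, -0.01 and -0.08 with sgCTRL. Of the 8 genes, 2 rose and 1 fell with sgKLHL14 (37.5%, near the 38.9% of all genes), and 2 rose and 2 fell with sgCTRL (50.0%, against 34.8% of all genes).

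In reads summed over its 16 subunits in the set, the V-ATPase had a smaller ratio of ibrutinib to DMSO than the hydrolases. That difference was not tested, and the subunits moved apart. Summed over the 16 subunits, reads were 1125 and 1114 RPM in ibrutinib against 1043 and 1030 in DMSO with sgKLHL14, a ratio of 1.08. With sgCTRL they were 1083 and 1063 against 1011 and 1057, a ratio of 1.04. The 21 expressed hydrolases and activators summed to 2079 and 2074 RPM in ibrutinib against 1779 and 1724 in DMSO with sgKLHL14, a ratio of 1.19, and to 2126 and 2097 against 1799 and 1843 with sgCTRL, a ratio of 1.16. The ibrutinib and DMSO sums did not overlap in either class or with either guide. Such sums weigh long, abundant transcripts most. The 8 membrane and sterol transport genes had ratios of 1.12 with sgKLHL14 and 1.07 with sgCTRL. Their median log2 changes, 0.04 with sgKLHL14 and 0.02 with sgCTRL, were below those of the 16 pump subunits, 0.12 and 0.07. By calls, 4 of the 16 subunits rose and 1 fell with sgKLHL14 (31.2%, against 38.9% of all genes). With sgCTRL 6 rose and 2 fell (50.0%, against 34.8% of all genes), so by this measure the pump did not trail the hydrolases with sgCTRL.

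In the V0 sector, ATP6V0A1, an isoform of the large membrane subunit that forms the proton path, fell with both guides. It was at 9.70 and 9.84 in ibrutinib against 9.92 and 10.11 in DMSO with sgKLHL14, and 9.51 and 9.43 in ibrutinib against 10.05 and 10.11 in DMSO with sgCTRL. No ibrutinib library reached a DMSO library of its guide, and the gap was wider with sgCTRL, where ATP6V0A1 had the lowest change of all 47 genes, -0.61 (SE 0.087, limma adjusted p = 1.81e-05), against -0.24 with sgKLHL14 (adjusted p = 0.0334). The difference between these responses was 0.37 (95% interval 0.11 to 0.63), the largest in the set, and did not pass (adjusted p = 0.709). With sgKLHL14 the call was lost without the filter on low values, without the mean-variance trend, with only the 4 libraries compared in the fit and without sgKLHL14 DMSO 2 or sgKLHL14 ibrutinib 1 (adjusted p = 0.0501 to 0.278, within 0.0134 to 0.278 over its 18 alternatives), and without sgKLHL14 DMSO 2 the change was -0.15. ATP6V0A2, another isoform of the same subunit, had -0.02 with sgKLHL14 and -0.08 with sgCTRL and passed in neither. TCIRG1, which encodes a further isoform and is not one of the 48 genes, rose by 0.66 with sgKLHL14 and 0.49 with sgCTRL (adjusted p = 4.21e-07 and 1.79e-05), where ATP6V0A1 fell.

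Of the other V0 subunits, ATP6V0C, which forms the proton-binding ring, was at 9.58 and 9.50 in ibrutinib against 9.74 and 9.56 in DMSO with sgKLHL14, and 9.51 and 9.39 in ibrutinib against 9.996 and 9.67 in DMSO with sgCTRL. The sgCTRL groups were apart and the sgKLHL14 groups overlapped only narrowly, and ATP6V0C passed with sgCTRL alone (log2 change -0.38, limma adjusted p = 0.00688; -0.11 with sgKLHL14, adjusted p = 0.422). ATP6V0D1, which links the ring to the rotor of V1, was at 10.94 and 10.98 in ibrutinib against 10.91 and 10.70 in DMSO with sgKLHL14, and 11.12 and 11.06 in ibrutinib against 10.74 and 10.83 in DMSO with sgCTRL. ATP6V0B, a second ring subunit, was at 10.89 and 10.81 in ibrutinib against 10.74 and 10.62 in DMSO with sgKLHL14, and 10.78 and 10.57 in ibrutinib against 10.36 and 10.54 in DMSO with sgCTRL. Both had ibrutinib libraries above DMSO libraries with either guide and passed with sgCTRL alone: ATP6V0D1 with 0.30 (adjusted p = 0.0038) beside 0.15 with sgKLHL14 (adjusted p = 0.118), and ATP6V0B with 0.23 (adjusted p = 0.0388) beside 0.17 (adjusted p = 0.121). For none of the 3 did the difference in response pass (adjusted p = 0.913, 0.937 and 0.984 for ATP6V0C, ATP6V0D1 and ATP6V0B). The sgCTRL call of ATP6V0C was lost without the filter on low values, without the mean-variance trend and without sgCTRL DMSO 1 or sgCTRL ibrutinib 2 (adjusted p = 0.0503 to 0.168, within 0.000895 to 0.168 over its 18 alternatives), and without sgCTRL DMSO 1 its change was -0.22. That of ATP6V0B was lost without the filter on low values, without the mean-variance trend, with voom and without sgCTRL DMSO 1 or sgCTRL ibrutinib 1 (adjusted p = 0.0512 to 0.417, within 0.0201 to 0.417 over its 18 alternatives), with changes of 0.14 without sgCTRL DMSO 1 and 0.12 without sgCTRL ibrutinib 1. That of ATP6V0D1 was lost without sgCTRL ibrutinib 1 (adjusted p = 0.0521, within 0.000675 to 0.0521 over its 18 alternatives), while its sgKLHL14 change, 0.26 without sgKLHL14 DMSO 1, passed there (adjusted p = 0.0166, within 0.0166 to 0.704). ATP6V0E1, a small subunit, passed with neither guide (0.03 and -0.10). Of the 6 V0 subunits, 1 fell with sgKLHL14 (16.7%, against 38.9% of all genes), and 2 rose and 2 fell with sgCTRL (66.7%, against 34.8%).

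The V1 sector had 3 of 8 subunits higher and 0 lower with either guide, and they were the same 3. This share of 37.5% is near those of all genes called in either direction, 38.9% with sgKLHL14 and 34.8% with sgCTRL. Of all genes, 19.7% were called higher and 19.3% lower with sgKLHL14, and 17.9% higher and 16.9% lower with sgCTRL. ATP6V1G1, part of the peripheral stalk, was at 11.65 and 11.66 in ibrutinib against 11.38 and 11.18 in DMSO with sgKLHL14, and 11.56 and 11.58 in ibrutinib against 11.39 and 11.32 in DMSO with sgCTRL. ATP6V1C1, which ties the stalks to V0, was at 10.97 and 10.96 in ibrutinib against 10.64 and 10.71 in DMSO with sgKLHL14, and 10.90 and 10.95 in ibrutinib against 10.73 and 10.75 in DMSO with sgCTRL. ATP6V1D, part of the central rotor, was at 10.46 and 10.44 in ibrutinib against 10.19 and 10.21 in DMSO with sgKLHL14, and 10.38 and 10.41 in ibrutinib against 10.13 and 10.19 in DMSO with sgCTRL. In all 3 genes the ibrutinib libraries lay above the DMSO libraries of their guide. The log2 changes were 0.37 with sgKLHL14 and 0.22 with sgCTRL (SE 0.069, adjusted p = 0.00025 and 0.0185) for ATP6V1G1, 0.29 with sgKLHL14 and 0.18 with sgCTRL (SE 0.066, adjusted p = 0.00155 and 0.0362) for ATP6V1C1 and 0.25 with sgKLHL14 and 0.23 with sgCTRL (SE 0.071, adjusted p = 0.00817 and 0.0144) for ATP6V1D in limma. The sgKLHL14 calls held in all 18 alternatives. With sgCTRL, ATP6V1G1 lost the call without the filter on low values, without the mean-variance trend and without sgCTRL DMSO 2, sgCTRL ibrutinib 1 or sgCTRL ibrutinib 2 (adjusted p = 0.0568 to 0.119, within 0.0043 to 0.119 over its 18 alternatives). ATP6V1C1 lost it without the mean-variance trend, with median centring and without sgCTRL DMSO 1, sgCTRL DMSO 2, sgCTRL ibrutinib 1 or sgCTRL ibrutinib 2 (adjusted p = 0.0501 to 0.228, within 0.0229 to 0.228 over its 18 alternatives). ATP6V1D lost it without sgCTRL DMSO 1, sgCTRL ibrutinib 1 or sgCTRL ibrutinib 2 (adjusted p = 0.0687 to 0.116, within 0.0104 to 0.116 over its 18 alternatives).

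The ATP-splitting subunits of V1 passed with neither guide: ATP6V1A, the catalytic one, had 0.09 with sgKLHL14 and 0.07 with sgCTRL, and ATP6V1B2, its non-catalytic partner, had -0.02 and -0.07. ATP6V1E1 and ATP6V1F had -0.03 and -0.06 with sgKLHL14 and -0.06 and -0.01 with sgCTRL, and ATP6V1H, a regulatory subunit, 0.18 and 0.08. Of the accessory proteins, ATP6AP1, needed for pump assembly, was at 10.76 and 10.85 in ibrutinib against 10.64 and 10.55 in DMSO with sgKLHL14, and 10.80 and 10.69 in ibrutinib against 10.49 and 10.58 in DMSO with sgCTRL. Its ibrutinib libraries lay above the DMSO libraries with either guide, and it rose by 0.21 with sgKLHL14 and 0.21 with sgCTRL (SE 0.072, adjusted p = 0.0297 and 0.0301) in limma. The call was lost with sgKLHL14 without the filter on low values, without the mean-variance trend and without sgKLHL14 DMSO 2 or sgKLHL14 ibrutinib 2 (adjusted p = 0.0546 to 0.185, within 0.022 to 0.185 over its 18 alternatives). With sgCTRL ATP6AP1 lost it without the filter on low values, without the mean-variance trend and without sgCTRL DMSO 1, sgCTRL ibrutinib 1 or sgCTRL ibrutinib 2 (adjusted p = 0.0533 to 0.263, within 0.0174 to 0.263 over its 18 alternatives). ATP6AP2, which binds prorenin as well as the pump, had 0.19 with sgKLHL14 (adjusted p = 0.0771) and 0.12 with sgCTRL (adjusted p = 0.278). With sgKLHL14 ATP6AP2 passed without sgCTRL DMSO 1, sgCTRL DMSO 2 or sgKLHL14 ibrutinib 2 (adjusted p = 0.0387 to 0.0478, within 0.0387 to 0.466 over its 18 alternatives), and with sgCTRL without sgCTRL DMSO 2 (adjusted p = 0.0464, within 0.0464 to 0.961 over its 18 alternatives).

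Neither transcription factor of the set was called higher in ibrutinib. TFEB was at 10.38 and 10.27 in ibrutinib against 10.50 and 10.28 in DMSO with sgKLHL14, and 10.40 and 10.36 in ibrutinib against 10.31 and 10.26 in DMSO with sgCTRL. Its groups overlapped with sgKLHL14 and were separate with sgCTRL by little, and the changes of -0.07 and 0.10 did not pass in limma (adjusted p = 0.541 and 0.377). TFE3 was at 9.37 and 9.34 in ibrutinib against 9.68 and 9.56 in DMSO with sgKLHL14, and 9.27 and 9.48 in ibrutinib against 9.48 and 9.57 in DMSO with sgCTRL. The groups were apart with sgKLHL14. With sgCTRL they were barely apart, the nearest libraries being at 9.481 in ibrutinib and 9.482 in DMSO. TFE3 fell by 0.27 with sgKLHL14 (adjusted p = 0.0292) and had -0.15 with sgCTRL (adjusted p = 0.223). The TFE3 call was lost without the filter on low values, without the mean-variance trend and without sgKLHL14 DMSO 1, sgKLHL14 ibrutinib 1 or sgKLHL14 ibrutinib 2 (adjusted p = 0.0626 to 0.184, within 0.0221 to 0.184 over its 18 alternatives). MITF, a relative of both, was below the filter. TFEC, the remaining relative, fell by 0.31 with sgKLHL14 and 0.47 with sgCTRL (adjusted p = 0.000354 and 4.01e-06). These are transcript levels: the location of the proteins in the cell, which controls TFEB and TFE3, was not measured.

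The ibrutinib responses with the 2 guides were then set against each other. Of the 47 genes, 16 passed in the same direction with both guides, when 3487 of all 12682 genes did so (27.5%). Of the 16, 13 were higher and 3 lower, and the 3487 were not split by direction. Another 2 passed with sgKLHL14 alone (TPP1 and TFE3), 6 with sgCTRL alone (SMPD1, GM2A, SCARB2, ATP6V0B, ATP6V0C and ATP6V0D1) and 23 with neither. The sign was the same in 44 of 47. Across these 47 genes, which are not independent replicates, the changes with sgKLHL14 and with sgCTRL had a Pearson correlation of 0.91, and no library is shared between them. Within classes it was 0.97 over the 21 hydrolases and activators and 0.88 over the 16 V-ATPase subunits. The difference in response itself passed for 0 of 47 genes in limma, against 0.0237% of all genes, with 2 at an unadjusted p under 0.05 and 0 with voom, and the lowest adjusted p was 0.704, for SCARB2. Passing with only 1 guide therefore does not show that a gene responded differently.

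**Figure D3:**
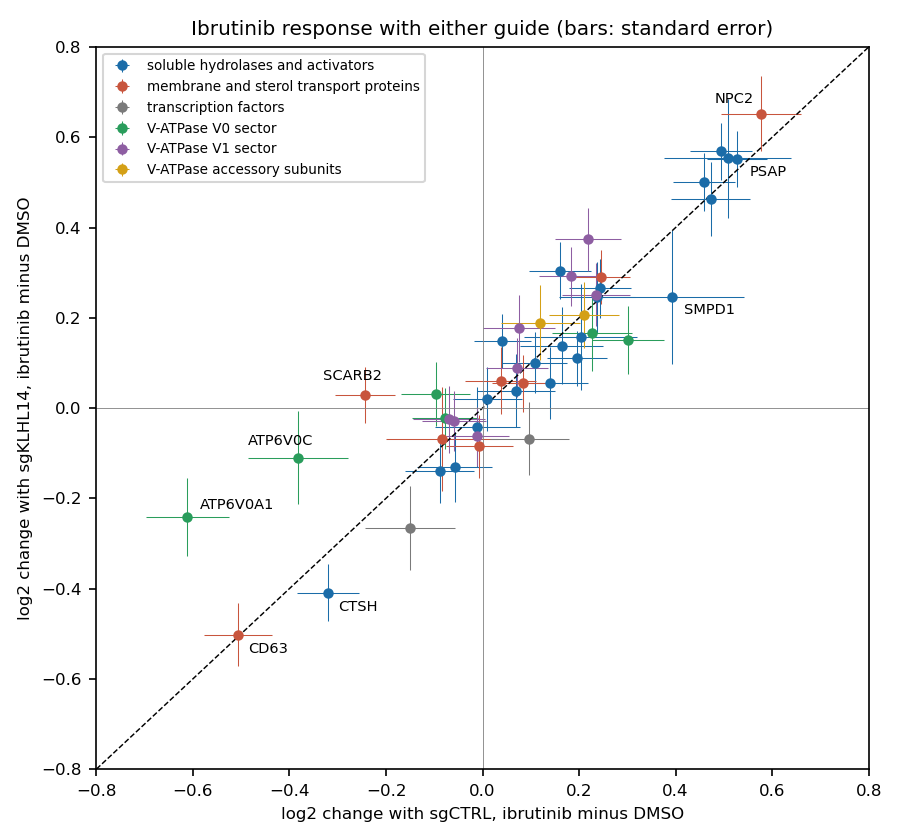
Log2 change in ibrutinib minus DMSO with sgKLHL14 on the y axis against that with sgCTRL on the x axis for 47 genes, coloured by class, with standard errors as bars and the line of equal change dashed. Most genes lie near the line, and ATP6V0A1, ATP6V0C and SCARB2 lie furthest above it, with differences of 0.37, 0.27 and 0.27.

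The guides compared within a treatment gave no call in the set. In DMSO, 0 of 47 genes passed for sgKLHL14 against sgCTRL in limma, against 1.62% of all genes, with 4 at an unadjusted p under 0.05, 0 with voom and a lowest adjusted p of 0.186. In ibrutinib, 0 of 47 passed, against 2.35% of all genes, with 6 at an unadjusted p under 0.05, 0 with voom and a lowest adjusted p of 0.0691. The 95% intervals of the guide differences lay between -0.40 and 0.50 for all 47 genes in DMSO and between -0.36 and 0.55 in ibrutinib. In ibrutinib the lowest difference was that of CTSH, -0.23 (95% interval -0.36 to -0.10; adjusted p = 0.0691), and the highest that of ATP6V0A1, 0.30 (0.12 to 0.48; adjusted p = 0.0835). As the values above show, CTSH was lower in both libraries labelled sgKLHL14 than in both sgCTRL libraries, and ATP6V0A1 was higher. CTSH passed with a replicate block (adjusted p = 0.0429), with only the 4 libraries compared in the fit (0.0463) and without sgKLHL14 DMSO 1 (0.0455) or 2 (0.0449), within 0.0429 to 0.458 over 18 alternatives. ATP6V0A1 passed with the replicate block alone (adjusted p = 0.0441, within 0.0441 to 0.582).

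Other lysosomal genes, from lists drawn up for the same pathway, were also called in both directions. Of 128 found, 117 were tested: with sgKLHL14 40 rose and 12 fell (52 of 117, against 38.9% of all genes), and with sgCTRL 42 rose and 13 fell (55 of 117, against 34.8% of all genes). Among 29 other hydrolases tested, 13 rose and 3 fell with either guide (55.2%). FUCA1, which removes fucose, rose by 0.67 with sgKLHL14 and 0.71 with sgCTRL, GRN, the progranulin precursor, by 0.50 and 0.52, and CTSO, a further cysteine cathepsin, by 0.80 and 0.76. IDS, a sulfatase of glycosaminoglycans, fell by 0.26 and 0.48. Over those 4 genes the highest limma adjusted p was 0.00197. Among 24 other membrane proteins, 10 rose and 1 fell with sgKLHL14 (45.8%), and 11 rose and 1 fell with sgCTRL (50.0%). They include TPCN1, an endolysosomal cation channel (0.56 and 0.38), CLCN7, the chloride and proton exchanger (0.49 and 0.35), SIDT2 (0.47 and 0.48), and ABCB9, a peptide transporter (0.74 and 1.52). With sgKLHL14 the ABCB9 call was lost without the filter on low values and without sgKLHL14 DMSO 2 or sgKLHL14 ibrutinib 1 (adjusted p = 0.0577 to 0.14, within 0.01 to 0.14 over its 17 alternatives). CLCN7 with sgCTRL lost its call without sgCTRL ibrutinib 1 (adjusted p = 0.0877, within 0.000935 to 0.0877 over its 18 alternatives).

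Of 6 other V-ATPase subunits tested, TCIRG1 and ATP6V1G2 rose with sgKLHL14 (33.3%, against 38.9% of all genes) and TCIRG1 alone passed with sgCTRL (16.7%, against 34.8%). ATP6V1G2, the isoform of ATP6V1G1 known from neurons, had 0.59 with sgKLHL14 (limma adjusted p = 0.0377) and 0.17 with sgCTRL (adjusted p = 0.561). Its call was lost without the filter on low values, without the mean-variance trend, with quantile scaling and without sgKLHL14 DMSO 2 or sgKLHL14 ibrutinib 2 (adjusted p = 0.0793 to 0.439, within 0.00625 to 0.439 over its 17 alternatives), and the change was 0.25 without sgKLHL14 DMSO 2 and 0.92 without sgKLHL14 DMSO 1. A further list joined genes of nutrient sensing at the lysosome with transcription factors such as TFEC. Among its 19 tested genes, 3 rose and 3 fell with sgKLHL14 (31.6%, against 38.9% of all genes). With sgCTRL 9 rose and 2 fell (57.9%, against 34.8%). TFEC is among those that fell with either guide. TSC1 and TSC2, whose protein complex restrains mTORC1, rose by 0.57 and 0.39 with sgKLHL14 and 0.36 and 0.36 with sgCTRL (highest adjusted p 0.000714). FNIP2, a partner of folliculin in that pathway, had only 6 to 43 reads a library and fell by 1.67 with sgKLHL14 and 1.49 with sgCTRL (adjusted p = 0.00246 and 0.00646). With a pseudocount of 10 reads its changes were -0.99 with sgKLHL14 and -0.93 with sgCTRL, and without sgKLHL14 ibrutinib 1 the change with that guide was -1.08. Its sgCTRL call was lost without the filter on low values and without sgCTRL DMSO 2 or sgCTRL ibrutinib 2 (adjusted p = 0.0504 to 0.0577, within 0.00181 to 0.0577 over its 17 alternatives).

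Levels per length differed widely between the genes. Normalised counts were divided by the length of the transcript whose accession the table gives, with lengths from GENCODE 29, so a gene whose cells use a shorter or longer isoform is misplaced. In sgCTRL DMSO libraries LAPTM5 averaged 6879 per kilobase (6839 and 6920), CTSZ 4203 (4463 and 3942), ATP6V1F 2952 (2933 and 2970), PSAP 2451 (2380 and 2521) and ATP6V1G1 2420 (2478 and 2362). PSAP and ATP6V1G1 overlapped and so have no order between them. At the low end HEXA averaged 209 (210 and 208), NAGLU 110 (107 and 113), SMPD1 60.7 (58.8 and 62.6) and GAA 50.2 (53.6 and 46.8), and these 4 did not overlap. Subunits that sit in the pump in fixed numbers were not level with each other in mRNA: ATP6V1A averaged 703 (663 and 742) and ATP6V1B2 389 (387 and 391), although their proteins alternate in the same ring.

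**Figure D4:**
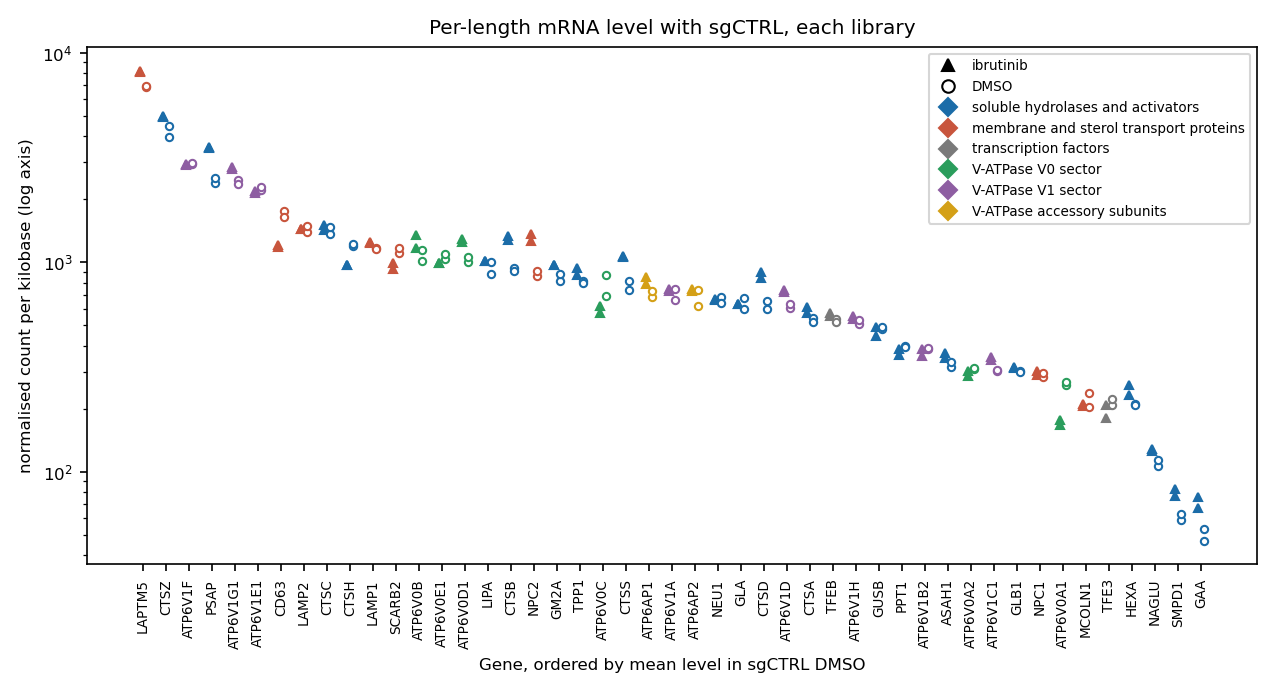
Normalised count per kilobase of transcript on a log y axis for 47 genes, ordered on the x axis by mean level in sgCTRL DMSO. Colours mark the class, and only sgCTRL libraries are shown, with ibrutinib as triangles and DMSO as circles. The genes span from GAA at 50.2 to LAPTM5 at 6879 in sgCTRL DMSO, and triangles lie above circles for PSAP, CTSB and NPC2 and below them for CD63.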

How the data were processed

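RNA of 8 TMD8 libraries, 2 in each of 4 groups named by the labels, was sequenced. The authors deposited log2 values of normalised counts per gene. The submitters' processing notes name bcl2fastq, STAR, HTSeq and hg19. For their versions, the strand setting and the normalisation the entry is: not given in the sources used here. In each library the linear values were whole multiples of 1 read's worth (1.16 to 2.19), with 100.0% of values up to 500 reads within 0.0006 log2 units, and the multiples summed to 99.997% to 100.003% of the deposited read total, a row kept out of all tests. Reads of overlapping genes and of near-identical copies may not be told apart. A value at 0 reads is listed at 0.

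Genes with a mean of at least 4.03 (10 reads at the median worth, 1.63) were kept, 12682 of 25066, and entered a limma fit (version 3.58.1, R 4.3.3) with a mean for each of 4 groups and a variance prior following the mean (4 residual and 15.05 prior degrees of freedom). Calls are at a Benjamini-Hochberg adjusted p under 0.05, two-sided. The plan assumed log2 units throughout, and since the deposited columns also hold the linear read total, their unit was recorded as other, with the same test. On simulated counts at these depths, in 5 runs, 4.26% of calls were false for ibrutinib with sgCTRL and 3.53% for the guides in DMSO, and 48.4% and 44.2% of 1.5-fold changes and 87.2% and 87.4% of 2-fold changes were found. The simulation changed far fewer genes than ibrutinib did here, all by 1.5-fold or 2-fold, and gave all genes the same extra spread. Its rates describe that setting and may not carry over to these data.

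The members, the other lists and the rule for named genes were chosen with earlier results of these data known. The rule gives members called in any contrast by library, class extremes by value, the transcription factors, and up to 4 called genes of each other list by smallest adjusted p. Alternatives were other filters, variance models and scalings, a pseudocount of 10 reads, voom on the recovered reads, a replicate block, fits on the compared groups only, and leaving out each library. Of the other genes, 9 were found under older symbols.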

Additional observations from a re-analysis of the deposited data

How the results depend on the processing

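With sgKLHL14 the number of called genes of the set was 18 and ran from 15 to 20 over the fits that left out 1 library, and 13 of the 18 calls held in all 18 alternatives. With sgCTRL it was 22 and ran from 11 (without sgCTRL ibrutinib 2) to 22, falling to 12 without sgCTRL ibrutinib 1, to 14 without sgCTRL DMSO 1 and to 13 without the mean-variance trend, and 8 of the 22 calls held throughout. Without the mean-variance trend the sgKLHL14 count fell to 13 as well. The cause of these falls was not tested. For the guides in ibrutinib, 0 calls became 2 with a replicate block, 1 with only the groups compared, and 0 to 1 when 1 library was left out. The other counts of calls, for the guides in DMSO and for the difference in response, were 0 throughout. Same-numbered libraries of different groups correlated at -0.06 to 0.11 in their deviations from the group means, so the numbers were not taken as pairs, and with the replicate block the counts were 19 with sgKLHL14 and 23 with sgCTRL.

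Changes that did not pass as reported turned sign when 1 library was left out. With sgKLHL14 these were GLA (-0.1355 to 0.0525), GLB1 (-0.0025 to 0.0795), NEU1 (-0.009 to 0.049), LAMP1 (-0.022 to 0.131), SCARB2 (-0.031 to 0.089), NPC1 (-0.025 to 0.147), MCOLN1 (-0.2255 to 0.0885), TFEB (-0.181 to 0.045), ATP6V0A2 (-0.0785 to 0.0325), ATP6V0E1 (-0.028 to 0.090) and ATP6V1E1 (-0.113 to 0.056). With sgCTRL they were CTSC (-0.0145 to 0.0965), GLA (-0.0935 to 0.0715), NEU1 (-0.033 to 0.053), ATP6V1A (-0.0105 to 0.1535), GUSB (-0.130 to 0.014), LAMP2 (-0.0545 to 0.0405), MCOLN1 (-0.194 to 0.025) and ATP6AP2 (-0.0075 to 0.2475). With quantile scaling, ATP6V1F with sgCTRL was 0.0006, beside -0.01 as reported, and with median centring NEU1 with sgCTRL was -0.001, beside 0.01. Over all genes, calls for the guides ran from 25 (no mean-variance trend) to 534 (without sgKLHL14 DMSO 2) in DMSO, where the fit as reported gave 206, and from 96 (no mean-variance trend) to 432 (replicate block) in ibrutinib, where it gave 298. For ibrutinib with sgCTRL they ran from 2907 without sgCTRL ibrutinib 2 to 4998, where it gave 4411.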

Other observations

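Genes for the sorting of enzymes to lysosomes moved in both directions in ibrutinib. GGA2, an adaptor that loads mannose 6-phosphate receptors into vesicles at the Golgi, had the largest rise among 15 tested sorting genes, at 13.68 and 13.68 in ibrutinib against 12.83 and 12.86 in DMSO with sgKLHL14, and 13.55 and 13.56 in ibrutinib against 12.83 and 12.86 in DMSO with sgCTRL. The ibrutinib and DMSO libraries were far apart with either guide, and GGA2 rose by 0.84 with sgKLHL14 and 0.71 with sgCTRL (SE 0.055, adjusted p = 7.17e-10 and 6.44e-09) in limma. GGA1, a related adaptor, rose by 0.44 with sgKLHL14 and 0.58 with sgCTRL (adjusted p = 0.000101 and 5.33e-06). IGF2R, one of the receptors they carry, fell by 0.21 and 0.34 (adjusted p = 0.0307 and 0.00105). The IGF2R call was lost with sgKLHL14 without the filter on low values, without the mean-variance trend and without sgKLHL14 DMSO 2 or sgKLHL14 ibrutinib 1 (adjusted p = 0.107 to 0.296, within 0.00566 to 0.296 over its 18 alternatives), with a change of -0.11 without sgKLHL14 DMSO 2 and -0.12 without sgKLHL14 ibrutinib 1. AP3B1, a subunit of an adaptor that sorts lysosomal membrane proteins, rose with sgKLHL14 (0.26, adjusted p = 0.00179) and had 0.14 with sgCTRL (adjusted p = 0.0734). The sgCTRL change of AP3B1 passed with quantile scaling and with only the 4 libraries compared in the fit (adjusted p = 0.0351 to 0.0413, within 0.0351 to 0.394 over its 18 alternatives). In all, 5 of the 15 rose and 1 fell with sgKLHL14, and 4 rose and 2 fell with sgCTRL. Either count is 40.0%, near the 38.9% of all genes called with sgKLHL14 and the 34.8% with sgCTRL.

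Autophagy genes, whose products deliver cargo to lysosomes, were also called in both directions. Of 24 tested, 7 rose and 4 fell with sgKLHL14 (45.8%, against 38.9% of all genes), and 4 rose and 5 fell with sgCTRL (37.5%, near the 34.8% of all genes). GABARAPL1, a ubiquitin-like protein of the autophagosome membrane with 23 to 159 reads a library, was at 6.09 and 5.65 in ibrutinib against 6.996 and 7.06 in DMSO with sgKLHL14, and 6.41 and 6.02 in ibrutinib against 7.36 and 7.53 in DMSO with sgCTRL. It fell by 1.15 with sgKLHL14 and 1.23 with sgCTRL (limma adjusted p = 0.000191 and 0.000119), and no ibrutinib library reached a DMSO library. WIPI1, which binds the phosphoinositide of forming autophagosomes, fell by 0.37 and 0.52 (adjusted p = 0.00848 and 0.000808). The WIPI1 call was lost with sgKLHL14 without sgKLHL14 DMSO 1 or sgKLHL14 ibrutinib 1 (adjusted p = 0.0636 to 0.106, within 0.00604 to 0.106 over its 18 alternatives). NBR1, a cargo receptor, rose by 0.38 and 0.28, and TECPR1, which tethers autophagosomes to lysosomes, by 0.48 and 0.39 (highest adjusted p of the pair 0.00374). NBR1 lost its call with sgCTRL without sgCTRL ibrutinib 2 (adjusted p = 0.0573, within 0.000721 to 0.0573 over its 18 alternatives). Over the 117 genes of all further lists, sgKLHL14 against sgCTRL gave 1 call in DMSO, TFEC (-0.32, adjusted p = 0.00545), and 1 in ibrutinib, LAPTM4B (-1.29, adjusted p = 0.0367), both lower in the libraries labelled sgKLHL14. The TFEC call held in 15 of 18 alternatives (adjusted p = 0.00168 to 0.159). LAPTM4B, a membrane protein named after its values were seen, had 9 to 55 reads a library, and its call held in 9 of 17 (adjusted p = 0.0215 to 0.29).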
